A study of Mus musculus with 8 samples.

Results

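The genes examined here move, store or sense zinc and iron. They were chosen by name from the probe sets that the platform annotation assigns to a single gene symbol: the zinc exporter family Slc30a, the zinc importer family Slc39a, and named genes of iron transport, iron storage and metal buffering. This gave 39 of 22180 genes, each with 1 probe set. Trf, Ftl1, Slc30a1 and Slc30a10 were named by the same rule but are listed only on probe sets shared with other gene symbols, so they were not analysed here.

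Iron enters most cells bound to transferrin through the transferrin receptor, is reduced in the endosome by a STEAP reductase and leaves it through the carrier Slc11a2. It is then stored in ferritin, passed to mitochondria for haem and iron-sulphur clusters, or exported, while a pair of iron regulatory proteins adjust transferrin receptor and ferritin to the supply. Zinc is brought into the cytosol by SLC39 proteins and removed from it by SLC30 proteins, and the excess is bound by metallothioneins, whose genes are switched on by the zinc-sensing factor Mtf1. Pluripotent cells divide fast and need both metals.

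Affymetrix Mouse Gene 2.1 arrays had been hybridised with RNA from 4 groups of wild type C57BL/6J samples, with 2 arrays per group. FGF-ESC are lines grown on mouse embryonic fibroblast (MEF) feeders in KODMEM medium with FGF2 and 20% KSR, a serum replacement, and EpiSC, the primed reference, were kept the same way. ESC, the naive reference, were kept without feeders in DMEM with 15% FCS (serum), LIF and the 2i inhibitor pair. ICM is uncultured inner cell mass taken by immunosurgery from blastocysts at day 3.5. The labels trace every cultured line to an embryo of day 3.5 and do not say how many lines or embryos stand behind an array. ESC differed from FGF-ESC and EpiSC in medium, serum and feeders together, and the RNA of ICM was extracted with another kit than that of the cultured groups, so these factors and the groups cannot be told apart.

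The values are the authors' log2 intensities, and differences between groups are therefore log2 fold changes, on which 1 is a doubling. Levels were compared between arrays for 1 gene at a time, never between genes. A gene was tested where at least 2 arrays exceeded the median of all values, 4.24, and levels near or under that median are close to background. Of the 39 genes 31 were tested. A difference passed the threshold at a Benjamini-Hochberg adjusted p below 0.05 in limma together with a log2 difference of at least 1 in either direction. "Higher", "lower", "rose" and "fell" below are used of differences that passed, unless a value is only being described.

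The naive and primed marker means matched the labels of ESC and EpiSC, and fibroblast markers set FGF-ESC apart. The mean level of 10 naive pluripotency genes was 7.02 to 7.80 on the FGF-ESC, ESC and ICM arrays and 4.33 and 4.88 in EpiSC. That of 7 primed genes was 7.11 and 7.44 in EpiSC and 4.71 to 5.33 elsewhere. Of the naive genes 7 were higher in ICM than in EpiSC, and Nr0b1 (3.93 in ICM, 3.95 in EpiSC), Esrrb and Prdm14 did not pass. Of the primed genes 6 were lower in ICM than in EpiSC, and Otx2 (6.10 in ICM, 5.97 in EpiSC) did not pass. The 24 fibroblast markers averaged 8.40 on FGF-ESC replicate 1 and 7.19 on FGF-ESC replicate 2, against 4.91 and 5.13 in EpiSC and 4.18 to 4.34 in ESC and ICM. Of these 24 markers 24 and 22 exceeded the median of all values on the FGF-ESC arrays and 11 to 19 did on each other array. In ICM, 6 primitive endoderm markers averaged 5.98 and 6.01 and 8 trophectoderm markers 5.87 and 5.87, above the ranges of 4.14 to 5.32 and 4.79 to 5.24 on the cultured arrays. Not every marker of these lists had its highest group mean in ICM. The exceptions were Sox7 (3.01 in ICM, 3.46 in FGF-ESC), Dab2 (6.71 in ICM, 6.93 in FGF-ESC), Tead4 (7.42 in ICM, 7.87 in ESC) and Krt7 (4.54 in ICM, 4.69 in FGF-ESC). Macrophage, visceral endoderm and erythroid markers averaged between 3.80 and 4.69 on every array. Some single markers were far brighter. The macrophage markers Laptm5 and Cd68 were at 7.97 and 7.82 and at 7.09 and 7.02 on the ESC arrays. On the FGF-ESC arrays they were at 6.82 and 7.17 and at 6.16 and 5.90. The visceral endoderm marker Cubn was at 6.96 and 7.26 on the ICM arrays. Because RNA came from whole samples, fewer cells of a type and less RNA per cell cannot be told apart in anything that follows.

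The zinc and iron genes ranged from nearly even to far apart between the groups. Among the 31 tested genes, 10 had all group means within 0.5 of each other, 7 had means 0.5 to 1 apart and 14 had means at least 1 apart. These 14 gave 33 differences past the threshold over 6 comparisons, and the other 17 tested genes gave none. The share of all tested genes that passed in at least 1 comparison, or had means as far apart, was not computed. These counts therefore have no background, and shares are given below for each comparison. The 8 genes not tested were Hamp, Hfe, Slc40a1, Tfr2, Mt3, Slc30a8, Slc39a2 and Slc39a12, with levels from 2.56 to 4.31, so the iron hormone hepcidin (Hamp) and the iron exporter ferroportin (Slc40a1) were at or near background in all groups.

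**Figure D1:**
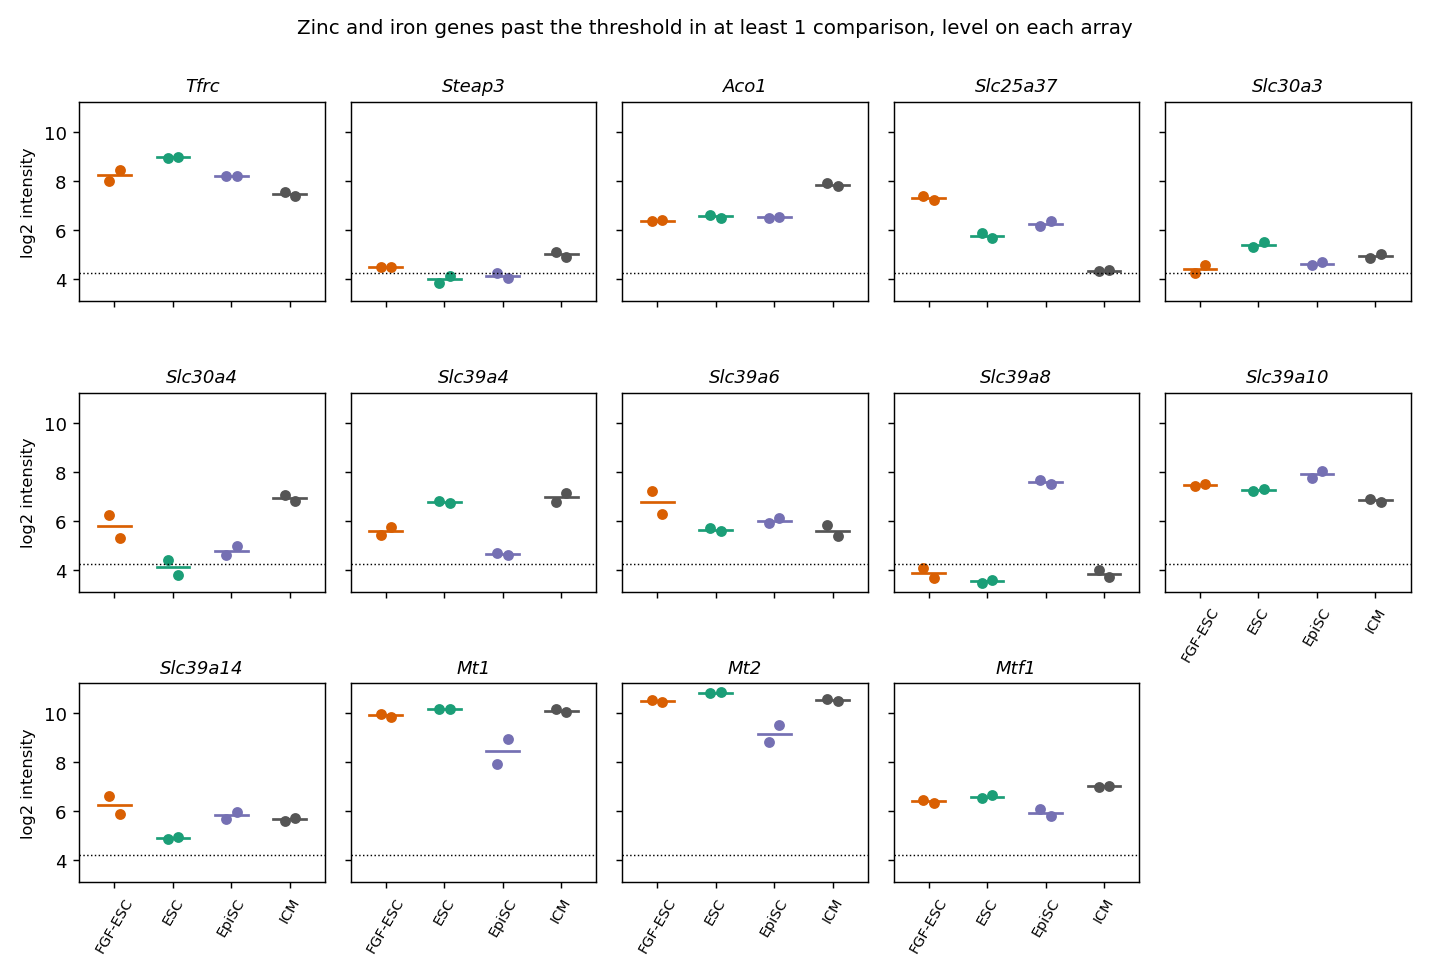
Level on each array (points) and group mean (bars) of the 14 genes past the threshold in at least 1 comparison, as log2 intensity on a shared axis, with the median of all values, 4.24, as a dotted line. Slc39a8 stands above that line only in EpiSC, Slc25a37 falls from FGF-ESC at 7.38 and 7.22 to ICM at 4.33 and 4.37, and Mt1 and Mt2 are lowest in EpiSC.

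Between FGF-ESC and ESC, 4 genes were higher in FGF-ESC (Slc25a37, Slc30a4, Slc39a14 and Slc39a6) and 2 were lower (Slc39a4 and Slc30a3). That is 19.4% of the 31 tested, where 6.21% of all 13597 tested genes passed, 5.27% higher and 0.934% lower. The median difference was 0.10 over the zinc and iron genes and -0.06 over all tested genes. Fibroblast markers differed by a median of 3.58 in the same comparison. Without FGF-ESC replicate 1 the count was 3, without ESC replicate 2 it was 2, and without ESC replicate 1 it was 4.

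Against EpiSC, Mt1, Mt2 and Slc25a37 were higher in FGF-ESC and Slc39a8 was lower. These 4 make 12.9% of the tested members, and 7.28% of all tested genes passed, with 5.26% higher and 2.02% lower. The count was 1 without EpiSC replicate 1 and 6 without FGF-ESC replicate 2. The fibroblast median here was 2.88. Slc39a8 was tested only through the EpiSC arrays, in which it was high, and it counts in each comparison with EpiSC. The filter that asks for 4 arrays above the median removed it, and 3 members then passed here, beside 6.60% of all genes tested. FGF-ESC and ICM differed in 5 members, Slc25a37 and Slc39a6 higher in FGF-ESC and Aco1, Slc39a4 and Slc30a4 lower, which is 16.1% beside 14.8% of all genes (9.57% higher, 5.22% lower). That share is near the background. The fibroblast median in that comparison was 3.39, and the count was 3 without ICM replicate 2 or with only the arrays of these groups.

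The naive and primed references, ESC and EpiSC, were separated by Mt1, Mt2 and Slc39a4, which were higher in ESC, and by Slc39a8, which was higher in EpiSC. The share was 12.9%, and 7.36% of all tested genes passed (476 genes higher and 525, or 3.86%, lower in ESC). ESC had higher Tfrc and Slc25a37 than ICM and lower Aco1, Steap3 and Slc30a4. Here 16.1% of the members and 11.4% of all genes passed, 5.82% higher and 5.57% lower. EpiSC and ICM were farthest apart, with Slc39a8, Slc25a37 and Slc39a10 higher in EpiSC and Slc39a4, Mt1, Slc30a4, Mt2, Aco1 and Mtf1 lower. These 9 genes are 29.0% of the members, beside 15.3% of all genes, of which 8.48% were higher and 6.80% lower. Slc39a8, tested only through the EpiSC arrays, is in the counts of both comparisons with EpiSC. The filter that asks for 4 arrays above the median removed it. With that filter 3 members passed for ESC against EpiSC, beside 7.25% of all genes tested. For EpiSC against ICM 8 passed, beside 15.0%. Comparisons that share a group share its arrays, so their calls are not separate observations.

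**Figure D2:**
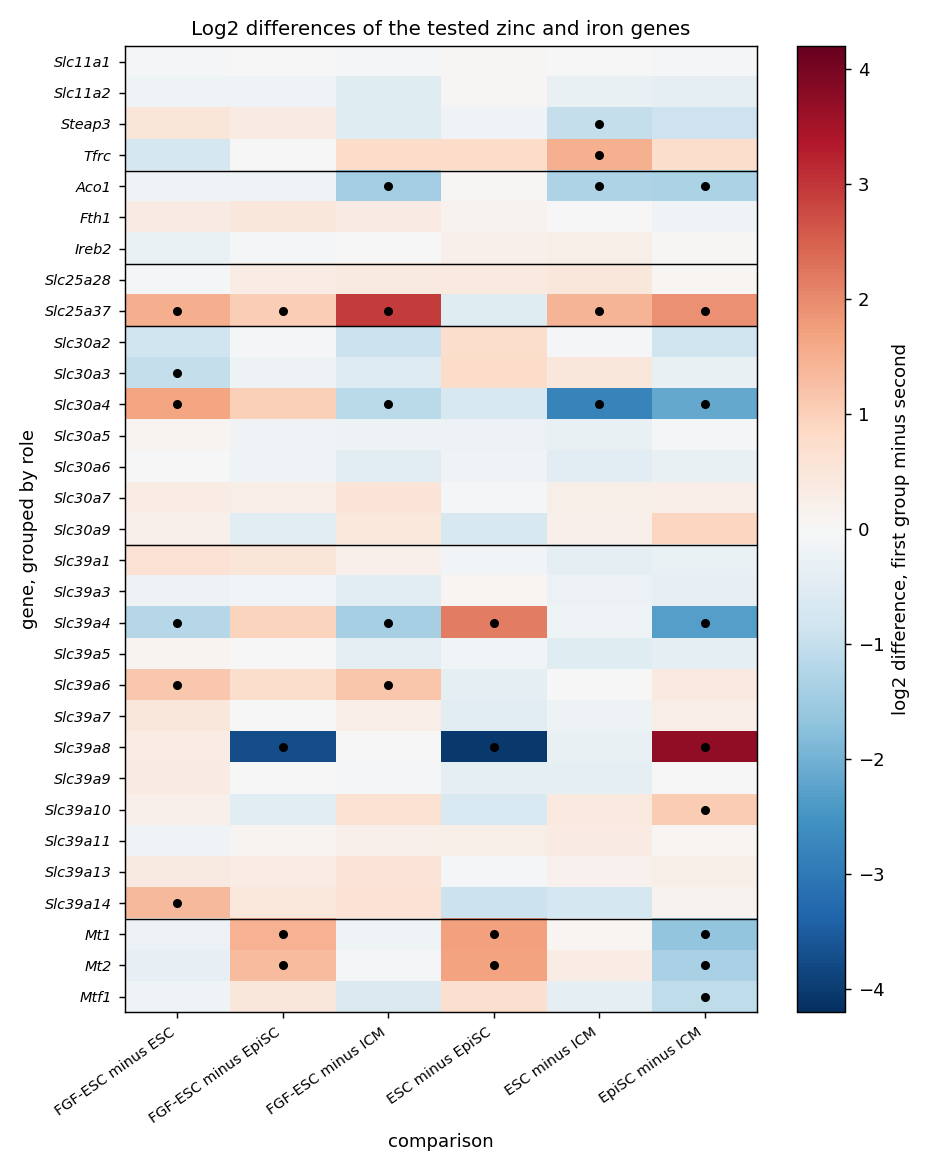
Log2 difference of group means (colour, first group minus second) for each of the 31 tested genes in rows, grouped by role, and each of the 6 comparisons in columns, with a black dot where the difference passed the threshold. Most cells are pale; among the deepest are Slc39a8 between EpiSC and each other group, -3.72, -4.04 and 3.73, and Slc25a37 between FGF-ESC and ICM, 2.95.

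Of the iron uptake genes, the transferrin receptor Tfrc, which takes up transferrin-bound iron, was at 8.01 and 8.46 on the FGF-ESC arrays, 8.96 and 8.98 on those of ESC, 8.20 and 8.23 on those of EpiSC and 7.55 and 7.41 on those of ICM. ESC arrays were the highest and ICM arrays the lowest, and those of FGF-ESC and EpiSC overlapped in between. The difference between ESC and ICM was 1.49 ± 0.16 (SE, n = 2 arrays per group, limma adjusted p = 0.000264), a fold of 2.81. The steps between neighbours were smaller than a doubling: ESC minus EpiSC was 0.76 ± 0.16 (adjusted p = 0.0123), and EpiSC minus ICM was 0.74 ± 0.16 (adjusted p = 0.00696). FGF-ESC and EpiSC differed by 0.02, with a 95% interval from -0.34 to 0.39.

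Steap3, the endosomal reductase of the transferrin cycle, was dim. It was at 4.49 and 4.50 on the FGF-ESC arrays, 3.86 and 4.14 on those of ESC, 4.24 and 4.05 on those of EpiSC and 5.13 and 4.89 on those of ICM. ICM arrays were above all others, and ESC minus ICM was -1.01 ± 0.15 (adjusted p = 0.00130), which fell short of the fold minimum without ESC replicate 1 (-0.87) or ICM replicate 1 (-0.89). With ESC set at the median of all values the fold is at least 1.70. Slc11a2, the carrier that moves iron out of the endosome, had group means from 5.76 in FGF-ESC to 6.26 in ICM, a difference of -0.50 ± 0.18 (adjusted p = 0.0594). Slc11a1, a related metal carrier of phagocytic cells, had group means between 4.64 and 4.72.

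Storage and sensing genes showed 1 clear difference, in the inner cell mass. Aco1, which encodes iron regulatory protein 1 and doubles as cytosolic aconitase, was at 7.91 and 7.82 in ICM, while the 3 cultured groups lay between 6.37 and 6.63. FGF-ESC minus ICM was -1.47 ± 0.11 (adjusted p = 4.28e-05), a fold of 2.77. ESC minus ICM was -1.302 ± 0.115 (adjusted p = 9.82e-05), and EpiSC minus ICM was -1.34 ± 0.11 (adjusted p = 5.19e-05). All 3 calls held under every alternative tried. Ireb2, which encodes iron regulatory protein 2, had group means from 7.41 to 7.68, and none of its 6 comparisons passed in limma or had an unadjusted p under 0.05. Its largest difference, FGF-ESC minus ESC, was -0.27, with an interval from -0.57 to 0.02.

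Fth1, the ferritin heavy chain that oxidises iron for storage, was at 10.94 and 10.88 on the FGF-ESC arrays, 10.57 and 10.55 on those of ESC, 10.34 and 10.50 on those of EpiSC and 10.57 and 10.58 on those of ICM. FGF-ESC arrays lay above the rest by a small margin. FGF-ESC minus EpiSC was 0.49 ± 0.11 (adjusted p = 0.0207), under the fold minimum, and FGF-ESC minus ESC was 0.35 ± 0.11 (adjusted p = 0.0764). Ferritin genes have many processed copies in the genome, and whether other copies add to this probe set was not tested.

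The widest range among the iron genes belonged to Slc25a37, mitoferrin 1, which carries iron into mitochondria. It was at 7.38 and 7.22 on the FGF-ESC arrays, 5.88 and 5.67 on those of ESC, 6.15 and 6.37 on those of EpiSC and 4.33 and 4.37 on those of ICM, where it was just above the median of all values. No arrays of different groups overlapped, and every cultured array was above both ICM arrays. FGF-ESC was higher than ICM by 2.95 ± 0.14 (adjusted p = 3.31e-06), a fold of 7.73. With ICM close to background, the folds of this gene against ICM depend on the floor.

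The other groups fell into an order for Slc25a37. EpiSC was higher than ICM by 1.91 ± 0.14 (adjusted p = 2.01e-05), and ESC was higher than ICM by 1.42 ± 0.14 (adjusted p = 0.000159). FGF-ESC was also higher than ESC, by 1.53 ± 0.14 (adjusted p = 0.000459), and these 3 calls and that of FGF-ESC against ICM held under every alternative. Against EpiSC the difference was 1.04 ± 0.14 (adjusted p = 0.00162), and it missed the fold minimum when FGF-ESC replicate 1 (0.95) or EpiSC replicate 1 (0.93) was left out. ESC minus EpiSC, at -0.49 ± 0.14 (adjusted p = 0.0388), was under the minimum. The 2 FGF-ESC arrays differed by 0.17 for Slc25a37, while their fibroblast marker means differed as given above. The part of fibroblast RNA in its FGF-ESC level was not tested.

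Its paralog Slc25a28, mitoferrin 2, was nearly even. Group means ran from 6.69 in ICM to 7.16 in ESC, and none of the 6 comparisons passed in limma, although 1 of them, ESC minus ICM at 0.47, had an unadjusted p under 0.05 (adjusted p = 0.0785). FGF-ESC minus ICM was 0.38, with an interval from -0.03 to 0.80.

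Among zinc importers, Slc39a8 (ZIP8), which carries zinc, manganese and iron across the cell surface, stood out in EpiSC. Its level was 7.66 and 7.50 in EpiSC, and all others were far below, with FGF-ESC at 4.06 and 3.67, ESC at 3.48 and 3.59 and ICM at 3.997 and 3.70. All 6 arrays outside EpiSC were under the median of all values. The difference from ESC was -4.04 ± 0.17 (ESC minus EpiSC, adjusted p = 6.68e-06). It was -3.72 ± 0.17 for FGF-ESC minus EpiSC (adjusted p = 2.05e-05) and 3.73 ± 0.17 for EpiSC minus ICM (adjusted p = 2.00e-06).

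Since the low groups sit at background, those folds depend on the floor. Measured from the median of all values, EpiSC was at least 10.1-fold higher. FGF-ESC shared the medium and feeders of EpiSC and had a Slc39a8 level under the median on both arrays. The part of medium and feeders in the EpiSC level was not tested. Each call held under every alternative in which the gene was tested. The gene was tested only through the EpiSC arrays, and the filter that asks for 4 arrays above the median removed it.

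Slc39a4 (ZIP4), the importer of dietary zinc in gut and of zinc in yolk sac, showed the opposite split. It was at 6.82 and 6.75 in ESC and 6.78 and 7.14 in ICM, at 5.42 and 5.73 in FGF-ESC, and at 4.70 and 4.59 in EpiSC. ESC and ICM arrays overlapped at the top, FGF-ESC was intermediate, and EpiSC was the lowest. EpiSC minus ICM was -2.31 ± 0.16 (adjusted p = 1.77e-05), a fold of 4.97.

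ESC was higher than EpiSC by 2.14 ± 0.16 (adjusted p = 8.04e-05). FGF-ESC was lower than ESC, at -1.21 ± 0.16 (adjusted p = 0.00286), and lower than ICM, at -1.38 ± 0.16 (adjusted p = 0.000348). All 4 of these calls held under every alternative. FGF-ESC minus EpiSC was 0.93 ± 0.16 (adjusted p = 0.00557), which missed the fold minimum and passed it at 1.09 without FGF-ESC replicate 1. ESC minus ICM was -0.18, with an interval from -0.55 to 0.19. The 8 visceral endoderm markers, of a tissue known to use this importer, averaged 4.61 and 4.62 in ICM and 3.87 to 4.02 in the cultured groups, and without Cubn, at 6.96 and 7.26 in ICM, the other 7 averaged 4.28 and 4.24 in ICM and 3.91 to 4.08 elsewhere. Their part in the ICM level of Slc39a4 was not tested.

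The importers Slc39a14 and Slc39a6 were highest in FGF-ESC, unevenly between its arrays. Slc39a14 (ZIP14), which takes up zinc and iron not bound to transferrin, was at 6.64 and 5.91 on the FGF-ESC arrays, 4.89 and 4.96 on those of ESC, 5.70 and 5.97 on those of EpiSC and 5.60 and 5.75 on those of ICM. ESC was the low group, and FGF-ESC overlapped EpiSC. FGF-ESC minus ESC was 1.35 ± 0.22 (adjusted p = 0.00714), and it fell below the fold minimum, to 0.99, without FGF-ESC replicate 1. Without ESC replicate 1 or ESC replicate 2 the adjusted p was 0.0747 and 0.0605, in a range of 0.000141 to 0.0747 over the alternatives.

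Slc39a6 (ZIP6), an importer linked to cell shape changes and STAT3 signalling, was at 7.21 and 6.29 on the FGF-ESC arrays, 5.69 and 5.57 on those of ESC, 5.89 and 6.12 on those of EpiSC and 5.84 and 5.37 on those of ICM. The FGF-ESC arrays were both above all others but 0.92 apart. FGF-ESC minus ESC was 1.12 ± 0.28 (adjusted p = 0.0346), and FGF-ESC minus ICM was 1.15 ± 0.28 (adjusted p = 0.0142). Without FGF-ESC replicate 1 these were 0.66 and 0.69, below the minimum. The first was also lost without ESC replicate 1 or ESC replicate 2 (adjusted p of 0.157 and 0.181, range 0.000976 to 0.181) and with only the arrays compared (0.0925), and the second without ICM replicate 2 (0.91) and with only the arrays compared (0.0589, range 0.000465 to 0.0925). For both genes FGF-ESC replicate 1, with the higher fibroblast mean, was the higher array, and the part of fibroblast RNA was not tested.

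Slc39a10 (ZIP10), a close relative of Slc39a6, was at 7.41 and 7.50 on the FGF-ESC arrays, 7.21 and 7.31 on those of ESC, 7.75 and 8.04 on those of EpiSC and 6.88 and 6.78 on those of ICM. The groups did not overlap and ranked EpiSC, FGF-ESC, ESC and ICM. Only EpiSC minus ICM passed, at 1.06 ± 0.13 (adjusted p = 0.000419), and it was 0.92 without EpiSC replicate 2. The other 7 tested importers, Slc39a1, Slc39a3, Slc39a5, Slc39a7, Slc39a9, Slc39a11 and Slc39a13, passed in none of the 6 comparisons. Among them Slc39a1 (ZIP1), a widely expressed surface importer, was at 6.57 and 5.94 in FGF-ESC and 5.51 and 5.78 in ESC, a difference of 0.61 ± 0.25 (adjusted p = 0.138). Slc39a7 (ZIP7), which releases zinc from the endoplasmic reticulum, was at 7.51 and 7.03 in FGF-ESC and 6.89 and 6.67 in ESC, with 0.49 ± 0.17 (adjusted p = 0.0949).

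Among zinc exporters, Slc30a4 (ZnT4), which loads zinc into secretory and endosomal vesicles, varied most. It was at 7.04 and 6.80 in ICM, 6.26 and 5.30 in FGF-ESC, 4.61 and 4.96 in EpiSC and 4.42 and 3.79 in ESC. ICM arrays were the highest and ESC arrays the lowest, without overlap between any of the groups. ESC minus ICM was -2.82 ± 0.32 (adjusted p = 0.000367), and EpiSC minus ICM was -2.14 ± 0.32 (adjusted p = 0.00109). Both held under every alternative, and with ESC set at the median the fold is at least 6.40 against ICM and at least 2.90 against FGF-ESC.

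The intermediate place of Slc30a4 in FGF-ESC was less firm. FGF-ESC minus ESC was 1.67 ± 0.32 (adjusted p = 0.0126), and was lost without ESC replicate 2 (adjusted p = 0.108) or with only the arrays of the groups compared (0.0634), in a range of 0.000685 to 0.108. It was 1.19 without FGF-ESC replicate 1 and still passed. FGF-ESC minus ICM was -1.14 ± 0.32 (adjusted p = 0.0236). It did not pass without FGF-ESC replicate 2 (-0.66), without ICM replicate 1 or ICM replicate 2 (adjusted p of 0.117 and 0.0653), or with only the arrays of these groups (0.0536), in a range of 0.00214 to 0.117. FGF-ESC minus EpiSC, at 0.99 ± 0.32 (adjusted p = 0.0638), passed at 1.47 without FGF-ESC replicate 2.

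Slc30a3 and Slc30a2, exporters into synaptic and secretory vesicles, were dim. Slc30a3 (ZnT3) was at 5.30 and 5.53 in ESC, 4.88 and 5.02 in ICM, 4.59 and 4.69 in EpiSC and 4.26 and 4.56 in FGF-ESC. ESC was the highest group and FGF-ESC the lowest. FGF-ESC minus ESC was -1.004 ± 0.148 (adjusted p = 0.00440), at the edge of the fold minimum, and fell inside it after quantile normalization (-0.95), without FGF-ESC replicate 1 (-0.85) or without ESC replicate 2 (-0.89).

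Slc30a2 (ZnT2) exceeded the median of all values in ESC and ICM, at 4.68 and 4.87 and at 4.91 and 4.80, and below it in FGF-ESC and EpiSC, at 3.83 to 4.10. Those groups did not overlap, but the differences missed the fold minimum, with -0.91 ± 0.14 for FGF-ESC minus ICM (adjusted p = 0.00129) and -0.83 ± 0.14 for FGF-ESC minus ESC (adjusted p = 0.00719). Slc30a9 (ZnT9), a mitochondrial zinc exporter, was at 7.18 and 7.06 in EpiSC and between 6.06 and 6.67 elsewhere, and EpiSC minus ICM, 0.89 ± 0.15 (adjusted p = 0.00240), was also under the minimum. The secretory pathway exporters Slc30a5, Slc30a6 and Slc30a7 passed in no comparison. Slc30a7 (ZnT7) was at 6.44 on FGF-ESC replicate 1 and at 5.31 to 5.82 on every other array.

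**Figure D3:**
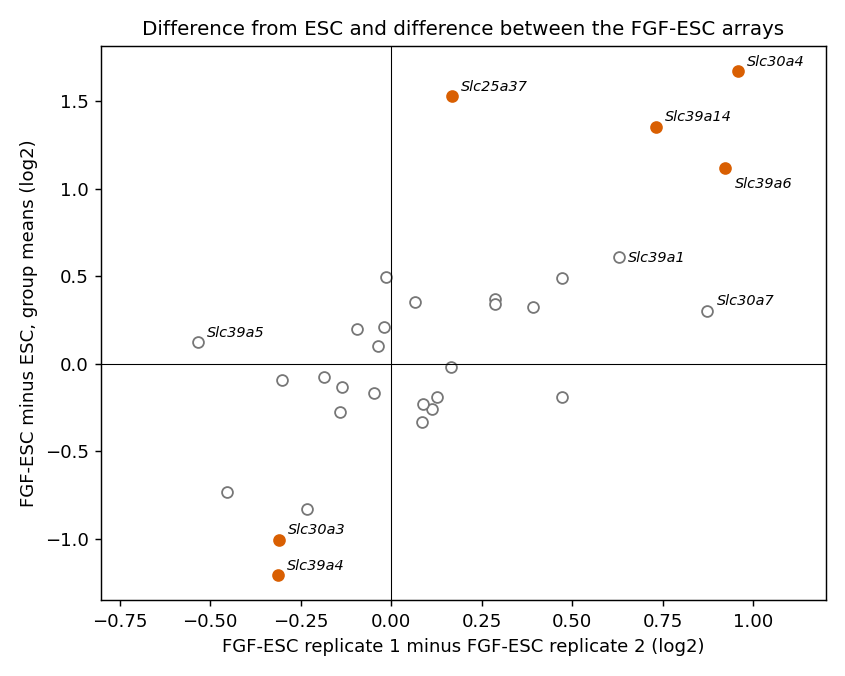
Difference between the FGF-ESC arrays (horizontal axis, replicate 1 minus replicate 2, log2) and difference of group means between FGF-ESC and ESC (vertical axis, log2) for the 31 tested genes, filled where FGF-ESC and ESC differed past the threshold. Slc30a4, Slc39a6 and Slc39a14 lie at the upper right, 0.73 to 0.96 higher on replicate 1, whereas Slc25a37 is as far from ESC with arrays 0.17 apart.

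The FGF-ESC arrays were the least alike over the whole array, with 395 tested genes differing by at least 1 between them, while 0 did so between ESC arrays, 20 between EpiSC arrays and 80 between ICM arrays. For the 39 members, tested or not, a lower cut of 0.5 was used. It was not counted over all genes, so the member counts cannot be set against those above. By that cut 6 members differed between the FGF-ESC arrays, and the counts were 1 for ESC, 2 for EpiSC and 3 for ICM. In FGF-ESC these were Slc30a4, Slc39a6, Slc30a7, Slc39a14 and Slc39a1, all higher on replicate 1, and Slc39a5, higher on replicate 2. The median gap between the arrays of a group was 0.18 for FGF-ESC and 0.14 to 0.15 for the other groups. The gaps of EpiSC were widest for the metallothioneins.

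Metallothioneins are small cysteine-rich proteins that bind zinc and copper. In the RefSeq gene table Mt4, Mt3, Mt2 and Mt1 follow each other on chromosome 8, with a noncoding gene between Mt3 and Mt2. Mt1 was at 9.99 and 9.87 on the FGF-ESC arrays, 10.20 and 10.18 on those of ESC, 7.94 and 8.97 on those of EpiSC and 10.17 and 10.06 on those of ICM. Mt2 was at 10.57 and 10.48 on the FGF-ESC arrays, 10.85 and 10.86 on those of ESC, 8.83 and 9.53 on those of EpiSC and 10.58 and 10.53 on those of ICM. Both genes were lowest on the EpiSC arrays, and replicate 1 of EpiSC was the lower of its arrays for both, by 1.02 for Mt1 and 0.71 for Mt2.

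ESC minus EpiSC was 1.73 ± 0.28 for Mt1 (adjusted p = 0.00328), and EpiSC minus ICM was -1.66 ± 0.28 (adjusted p = 0.00191). For Mt2 these differences were 1.67 ± 0.21 (adjusted p = 0.000895) and -1.38 ± 0.21 (adjusted p = 0.00109). The calls against ESC and ICM held under every alternative. FGF-ESC was higher than EpiSC by 1.47 ± 0.28 for Mt1 (adjusted p = 0.00798) and by 1.34 ± 0.21 for Mt2 (adjusted p = 0.00321). Both went below the fold minimum without EpiSC replicate 1 (0.96 and 0.99), and with only the arrays of these groups the adjusted p of Mt1 was 0.0610, the highest of its range from 0.000876.

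The Mt1 and Mt2 levels of FGF-ESC were nearer to those of ESC and ICM than to those of EpiSC, which shared its medium and feeders. The part of medium, feeders or fibroblast RNA in these levels was not tested. FGF-ESC minus ESC was -0.26 for Mt1 (interval -0.90 to 0.37) and -0.33 for Mt2 (interval -0.80 to 0.14), and FGF-ESC minus ICM was -0.19 for Mt1 and -0.03 for Mt2. Mt3, a metallothionein of brain, was at 3.55 to 4.22 on all arrays. Mt1 and Mt2 have similar sequences, and whether transcripts of one also bind the probes of the other was not tested.

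Mtf1, the transcription factor that senses zinc and drives metallothionein genes, was at 6.49 and 6.36 on the FGF-ESC arrays, 6.56 and 6.66 on those of ESC, 6.09 and 5.80 on those of EpiSC and 6.99 and 7.06 on those of ICM. It too was lowest in EpiSC, and it was highest in ICM, with no overlap between any of the groups. EpiSC minus ICM was -1.08 ± 0.13 (adjusted p = 0.000392), and -0.94 without EpiSC replicate 2. The differences of EpiSC from ESC and FGF-ESC were within the fold minimum, with 0.66 ± 0.13 for ESC minus EpiSC (adjusted p = 0.0104) and 0.48 ± 0.13 for FGF-ESC minus EpiSC (adjusted p = 0.0405).

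Because Mt1 and Mt2 moved together, their promoters were searched for the metal response element to which Mtf1 binds. Its core was written as TGCACNC and TGCGCNC, so that no position of a strand matches both, and was looked for on both strands in the 250 bases before the transcript start in the RefSeq promoter table (GRCm38.p6). The Mt1 window held 1 match and the Mt2 window 3, with the core in capitals, 10 bases on either side, and the gene's strand (plus) shown throughout, so that a core on the other strand reads as its reverse complement.
Mt1, chr8:94179056-94179082: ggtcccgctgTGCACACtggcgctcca
Mt2, chr8:94172385-94172411: gcatcgcctcTGCACCCggcccctcgg
Mt2, chr8:94172480-94172506: gcagacccttTGCGCTCagctcctttg
Mt2, chr8:94172558-94172584: gggggagggcGTGTGCAggctctgtcc

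The Mt1 match lay 17 to 23 bases before the start. Those of Mt2 lay 217 to 223, 122 to 128 and, on the opposite strand, 44 to 50 bases before it. At least 1 match was found in 21.4% of the 32851 windows of the whole table and at least 3 in 1.26%. Of the zinc and iron genes 32 were in the table with 44 windows, of which 27.3% held a match. Beside Mt2, windows of Slc30a2, Slc30a4 and Tfrc held 2 each, which in Tfrc overlap on opposite strands, and the Mt3 window held none. A match is a run of letters and not a bound site, and only these windows were searched. Slc25a37, Slc39a4, Slc39a6, Slc39a14, Slc11a2, Slc40a1 and Slc30a8 were not in the table.

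A list of 36 other genes of haem and iron handling set these results in their pathway. Of its 30 tested genes 4 rose and 0 fell in FGF-ESC against ESC, with a median of 0.06. The counts were 3 and 0 against EpiSC (median 0.07) and 6 and 3 against ICM (median 0.22), beside medians of -0.06, -0.04 and -0.02 over all tested genes. These are 13.3%, 10% and 30% of the list, where 6.21%, 7.28% and 14.8% of all tested genes passed. The surface reductases Steap1, Steap2 and Steap4, relatives of Steap3 that reduce iron and copper, and the haem carrier Slc48a1 made up the 4 that rose against ESC. Steap4 exceeded the median of all values only on the FGF-ESC arrays. It was thus tested only through the group in which it was high, and it counts as risen in each of these comparisons. Without FGF-ESC replicate 1, FGF-ESC minus ESC was 1.61 for Slc48a1, 1.31 for Steap1, 1.38 for Steap2 and 0.92 for Steap4. Without FGF-ESC replicate 2 the values were 2.41, 1.77, 2.44 and 2.86 in the same order.

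Slc48a1, which moves haem out of endosomes and lysosomes, was at 7.94 and 7.14 on the FGF-ESC arrays, 5.54 and 5.53 on those of ESC, 5.61 and 5.77 on those of EpiSC and 4.95 and 5.71 on those of ICM. Both FGF-ESC arrays stood above the rest, and FGF-ESC minus ESC was 2.01 ± 0.30 (adjusted p = 0.00440), or 1.61 without FGF-ESC replicate 1. Steap1 had group means of 5.95 for FGF-ESC and 4.41 for ESC, a difference of 1.54 ± 0.21 (adjusted p = 0.00298). Its ESC level was close to background, so this fold depends on the floor. Steap2 was at 6.40 and 5.34 in FGF-ESC and between 3.58 and 4.61 elsewhere, with FGF-ESC minus ESC at 1.91 ± 0.30 (adjusted p = 0.00564). Steap4 was at 6.23 on FGF-ESC replicate 1, 4.29 on FGF-ESC replicate 2 and 3.24 to 3.44 on all other arrays, so its difference of 1.89 ± 0.49 (adjusted p = 0.0374) was 0.92 without replicate 1. With ESC set at the median of all values, the fold is at least 3.09 for Steap2 and at least 2.02 for Steap4. These genes were higher on the array with the higher fibroblast mean, and the part of fibroblast RNA was not tested.

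**Figure D4:**
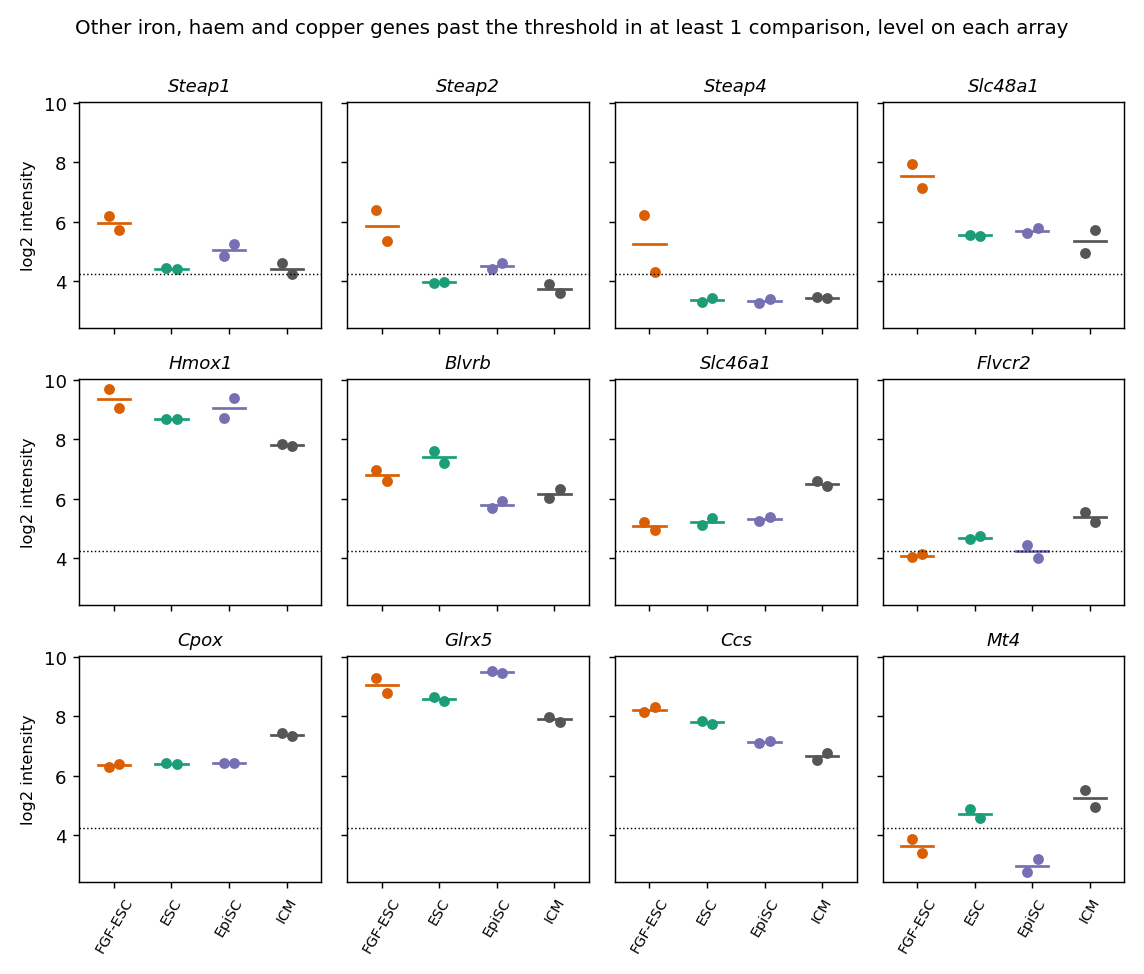
Level on each array (points) and group mean (bars) of the 12 other iron, haem and copper genes past the threshold in at least 1 comparison, as log2 intensity on a shared axis with the median of all values, 4.24, dotted. Steap1, Steap2, Steap4 and Slc48a1 are highest in FGF-ESC with replicate 1 on top, Slc46a1, Flvcr2 and Cpox are highest in ICM, and Mt4 is above the line on the ESC and ICM arrays.

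Among haem genes, ICM stood apart in several. Slc46a1, a folate carrier of the cell surface that also carries haem, was at 6.59 and 6.41 in ICM and between 4.95 and 5.40 in the cultured groups, and FGF-ESC minus ICM was -1.42 ± 0.15 (adjusted p = 0.000208). Cpox, an enzyme late in haem synthesis, was at 7.42 and 7.33 in ICM and at 6.31 to 6.44 elsewhere, a difference of -1.03 ± 0.11 for FGF-ESC minus ICM (adjusted p = 0.000220) that was -0.99 without FGF-ESC replicate 1, under the fold minimum. The ICM arrays were thus high for both, while Hmox1, the enzyme that breaks haem down, was lowest there.

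Hmox1 was at 9.68 and 9.05 on the FGF-ESC arrays, 8.67 and 8.69 on those of ESC, 8.71 and 9.41 on those of EpiSC and 7.86 and 7.79 on those of ICM. FGF-ESC minus ICM was 1.55 ± 0.26 (adjusted p = 0.00210). EpiSC exceeded ICM by 1.24 ± 0.26 (adjusted p = 0.00568). Glrx5, a mitochondrial carrier of iron-sulphur clusters, had ICM arrays at 7.99 and 7.82 and EpiSC arrays at 9.52 and 9.47, and EpiSC minus ICM was 1.59 ± 0.17 (adjusted p = 0.000183). ESC differed from EpiSC in 1 gene of the list, Blvrb, a biliverdin reductase of haem breakdown, which was higher in ESC by 1.60 ± 0.20 (adjusted p = 0.000881). From ESC to ICM, 1 gene was higher in ESC and 1 lower, and from EpiSC to ICM the counts were 2 and 2. The shares of the list were 3.33% for ESC against EpiSC, 6.67% for ESC against ICM and 13.3% for EpiSC against ICM, each below the 7.36%, 11.4% and 15.3% of all tested genes.

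Of 12 genes of copper and manganese handling 11 were tested, and only Mt4 and Ccs passed anywhere. For FGF-ESC against ICM 18.2% of the list passed, beside 14.8% of all tested genes. In each other comparison 9.09% of the list passed. Of all tested genes 6.21% passed for FGF-ESC against ESC, 7.28% for FGF-ESC against EpiSC and 7.36% for ESC against EpiSC. The shares of all genes were 11.4% for ESC against ICM and 15.3% for EpiSC against ICM. Mt4, the metallothionein of stratified epithelia beside Mt3, was at 4.88 and 4.56 in ESC and 5.53 and 4.95 in ICM, against 3.85 and 3.39 in FGF-ESC and 2.75 and 3.17 in EpiSC. Arrays of ESC and ICM were above the median of all values and those of FGF-ESC and EpiSC below it. EpiSC minus ICM was -2.27 ± 0.25 (adjusted p = 0.000191), but EpiSC is under the median, and measured from the median ICM was at least 1.99-fold higher, just short of a doubling. FGF-ESC minus ESC, -1.10 ± 0.25 (adjusted p = 0.0225), is at least 1.39-fold on that basis and was not called without FGF-ESC replicate 2 (-0.87). Ccs, the chaperone that hands copper to superoxide dismutase, was at 8.13 and 8.30 on the FGF-ESC arrays, 7.84 and 7.74 on those of ESC, 7.10 and 7.17 on those of EpiSC and 6.54 and 6.78 on those of ICM. Its groups did not overlap, and FGF-ESC was higher than ICM by 1.56 ± 0.13 (adjusted p = 6.65e-05) and higher than EpiSC by 1.08 ± 0.13 (adjusted p = 0.00111). The latter was 0.998 without FGF-ESC replicate 2, just under the fold minimum.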

How the data were processed

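RNA of 8 samples had been amplified and hybridised to 1-colour Affymetrix Mouse Gene 2.1 arrays. The authors deposited log2 intensities per probe set. The submitters' processing notes name Affymetrix Expression Console 1.3.1, and how it summarised probes and corrected background, and on which build, is not given in the sources used here. Array medians ran from 4.16 to 4.28, and no further normalization was applied. Of 41345 probe sets 23521 carry a single gene symbol in the platform annotation, 1814 carry several and 16010 none. The brightest single-symbol probe set stood for each of 22180 genes, and the 13597 genes with 2 or more arrays over the overall median were tested.

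All 8 arrays were fitted together with 1 mean per group in limma 3.58.1 (R 4.3.3; 4 residual degrees of freedom), and 6 contrasts were tested with Benjamini-Hochberg adjustment over all tested genes; intervals are 95% intervals of the same fit. The fit was tested on simulated data. Since the labels do not state separate cultures or embryo pools for a group's arrays, the p-values reflect the scatter of these samples alone, possibly technical, and 2 arrays per group limit the precision. The labels share replicate numbers between groups without saying that they pair samples. The members, the related gene lists and the marker lists were chosen with earlier results of these data known. Members past the threshold in any comparison are described with their values, other members by counts, ranges or, for textbook members of a role, group means, and from each related list up to 3 genes per comparison with the smallest adjusted p. Fth1, Hmox1, Ireb2, Slc25a28, Slc30a2, Slc30a7, Slc30a9, Slc39a1 and Slc39a7 fall outside this rule for single values and were chosen after their values were seen. Promoter sequences are from RefSeq (GRCm38.p6).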

Additional observations from a re-analysis of the deposited data

How the results depend on the processing

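Of the 33 member differences past the threshold, 21 kept their call under every alternative in which the gene was tested. The other 12 lost it under at least 1, of which 6 lost it only when an array was left out. No direction turned. The Slc39a8 calls are among the 21, although the filter asking for 4 arrays above the median removed that gene. Without the fold minimum, 8 of the 31 tested members passed for FGF-ESC minus ESC, beside 15.3% of all tested genes. The counts were 7 beside 19.8% for FGF-ESC minus EpiSC and 13 beside 36.7% for FGF-ESC minus ICM. They were 12 beside 19.0% for ESC minus EpiSC, 9 beside 33.0% for ESC minus ICM and 13 beside 38.4% for EpiSC minus ICM. With only the arrays of the groups compared, FGF-ESC minus ICM gave 3 members, beside 14.0% of all tested genes. Leaving out 1 array at a time gave 2 to 6 members for FGF-ESC minus ESC, 1 to 6 for FGF-ESC minus EpiSC, 3 to 5 for FGF-ESC minus ICM, 4 for ESC minus EpiSC, 4 to 5 for ESC minus ICM and 7 to 10 for EpiSC minus ICM; the lone array left in a group is then assumed to vary like the other groups. The cause of these changes was not tested. With the replicate number as a block the counts were 6, 4, 5, 4, 5 and 9 in the order of the comparisons as first given, the same as without it. After each gene's group mean was subtracted, same-numbered arrays of different groups correlated at -0.09 to 0.04. Over all genes, FGF-ESC minus ESC gave 844 calls, 526 with only these groups, 374 and 400 without ESC replicate 1 and ESC replicate 2, 575 without FGF-ESC replicate 1 and 1287 without FGF-ESC replicate 2; without the fold minimum the comparisons gave 2087 to 5219. Levels under the median of all values in some groups leave only lower bounds for the folds of Slc39a8, Steap3 and Slc30a4. The ICM level of Slc25a37, at 4.33 and 4.37, was also close to background, so its folds against ICM depend on the floor too. The leave-outs of FGF-ESC arrays for the related lists were chosen after seeing the data.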
